A study of Caenorhabditis elegans with 2 samples.

Results

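The C-type lectin genes of Caenorhabditis elegans were taken as all protein-coding genes whose symbol begins with clec-, which gave 240 of the 19973 protein-coding genes on the 6 nuclear chromosomes (Ensembl annotation of WBcel235, the same assembly as ce11). EFL-1, a transcription factor of the E2F family, had a reproducible chromatin immunoprecipitation (ChIP-seq) peak in the promoter window of 4 of them: clec-53, clec-87, clec-104 and clec-196. That was 1.67% of the family (95% Clopper-Pearson interval 0.456 to 4.21%), against 11.1% of all other protein-coding genes (2196 of 19733, interval 10.7 to 11.6%) and 11.0% of all protein-coding genes. At 3 of the 4 genes the peak was closer to the start of a head-to-head partner gene, and at clec-196 alone among the 4 it was closest to the lectin gene's own start. The family was selected on its promoter peaks being few in these same data, so these shares are a description and carry no test, as do all values below.

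The study has 1 group, mixed-sex whole animals at the first larval stage (L1), with 2 biological replicates that the labels number 2 and 3. The strain, YL418, carries the unc-119(ed3) III mutation and an integrated transgene, vrIs65, in which the ges-1 promoter drives EFL-1 joined to GFP and FLAG with the efl-1 3' untranslated region, beside unc-119(+) as a rescue. The ges-1 promoter is known for activity in the intestine, and the labels do not say in which cells the tagged protein was made. The antibody is named only as efl-1, and no untreated, untagged or input sample was used here.

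C-type lectin domain proteins share a fold first described in calcium-dependent carbohydrate-binding proteins, although many members of the family bind other ligands or none that is known. In C. elegans the family is large and often arranged in tandem arrays, many members are secreted, and several are switched on in the intestine when the animal eats pathogenic bacteria. E2F proteins bind DNA with a DP partner, and are best known for regulating genes of the cell cycle and DNA replication. Of the 237 lectin symbols that are also protein-coding in RefSeq, 204 have a product described there as a C-type lectin. The other 33 carry other names, such as PAN-3 domain-containing protein or Cubilin. The symbols clec-15, clec-209 and clec-249 are each shared by separate genes.

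The sequence under the clec-196 peak is shown first because it is the one reproducible peak nearest to a lectin start, and the regions at clec-140 and clec-146 because they are the strongest lectin regions below the reproducible set. All are from the ce11 assembly, printed 5' to 3' on the strand given, with TTTGAA in capitals where it occurs. TTTGAA is the word known from other animals as the cell cycle homology region, a site of the DREAM complex, of which EFL-1 is the E2F subunit in the worm. The clec-196 summit stretch is chrIV:17277351-17277380 on the plus strand, and its 2 TTTGAA copies lie 21 and 58 bp from the summit, at chrIV:17277329-17277358 on the minus strand and chrIV:17277408-17277437 on the plus strand. The clec-140 stretches are chrII:4672812-4672841 at the summit and chrII:4672857-4672886 around a TTTGAA 46 bp away, and the clec-146 summit stretch is chrII:13594013-13594042, all on the plus strand.
clec-196 summit: caccaactttgaggttggtggttgcgtact
clec-196 site 1: agttggtgccaaTTTGAActtaaatttcgc
clec-196 site 2: tggaaacatattTTTGAAggcctaaaaatt
clec-140 summit: aggtcagcacgctcgtttggtgtcccaaac
clec-140 site: acgcgaccgagtTTTGAAtttaattctaaa
clec-146 summit: gctcgcgtcaacgggtgtttctcaatggag
None of these stretches holds the E2F word searched (TTTCCCGC, TTTCGCGC, TTTGCCGC or TTTGGCGC), and none of the 4 bound members has it within 100 bp of its summit on either strand.

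A promoter window ran from 1000 bp before to 500 bp after any annotated transcript 5' end, and a gene was called bound where a summit from the set passing the irreproducible discovery rate (IDR) threshold fell inside it. The IDR set has 1886 peaks, and they are the 1886 regions of highest signal in the list of 30000 regions called on both replicates pooled. Peaks of this set are called reproducible here, although not all overlap a region in each replicate's own list (1884 in replicate 2, 1825 in replicate 3). Signal in that set runs from 24.4 to 2581, with a median of 62.0, while the median of the pooled list is 7.83. Because the lists hold no read counts, the depth behind a value is unknown.

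clec-87 had the strongest of the 4 peaks, with a pooled signal of 207 (rank 422 of the pooled list), 145 in replicate 2 and 61.3 in replicate 3. The libraries differ in scale, so each value was divided by its replicate's median signal over the IDR peaks, 45.8 in replicate 2 and 19.2 in replicate 3. On that scale clec-87 read 3.16 and 3.19, a mean of 3.17 ± 0.023 (SD, n = 2), so it stood at about the same height above the median in both replicates. clec-87 (WBGene00007709, chrI:10184462-10185520, minus strand) encodes a chondroitin proteoglycan core protein. Its peak, chrI:10185714-10185884, is intergenic, with the summit 289 bp upstream of clec-87 and 46 bp upstream of rsa-1, which encodes a regulatory subunit of protein phosphatase 2A used in spindle assembly and points the other way.

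clec-104 had a pooled signal of 69.4 (rank 874), 49.7 in replicate 2 and 16.9 in replicate 3. The scaled values were 1.08 and 0.881, a mean of 0.983 ± 0.144 (SD, n = 2), close to the median of the IDR set. clec-104 (WBGene00012480, chrI:12859493-12861293, plus strand) lies beside ciao-1, which encodes a cytosolic iron-sulfur cluster assembly protein, and the intergenic peak (chrI:12858354-12858637) sits 215 bp from the ciao-1 start and 997 bp from that of clec-104. That is 3 bp inside the edge of the 1000 bp window.

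clec-53 had the weakest peak, with a pooled signal of 33.4 (rank 1490), 21.3 in replicate 2 and 9.64 in replicate 3. Its scaled values were 0.465 and 0.502 (mean 0.483 ± 0.026, SD, n = 2). clec-53 (WBGene00020191, chrI:3871474-3873402, minus strand) is head-to-head with uba-5, which encodes the E1-like activating enzyme of the ubiquitin-like protein UFM1. The peak, chrI:3873823-3874106, lies in an intron of uba-5 as Ensembl annotates it, with its summit 563 bp upstream of clec-53 and 268 bp downstream of the nearest uba-5 start in the Ensembl annotation. RefSeq starts uba-5 at position 3874365, 400 bp from the summit on its other side, so by that annotation the summit is upstream of uba-5.

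clec-196 had a pooled signal of 39.9 (rank 1326), 30.3 in replicate 2 and 8.43 in replicate 3. Its scaled values of 0.661 and 0.439 (mean 0.550 ± 0.157, SD, n = 2) differed more between replicates than those of clec-53 and clec-87. In replicate 3 the region ranked 2402 and its summit lay 163 bp away, whereas in replicate 2 it ranked 1273. clec-196 (WBGene00009156, chrIV:17276956-17277748, plus strand) has 3 annotated 5' ends. The peak, chrIV:17277223-17277506, lies in an intron of clec-196, with its summit 83 bp downstream of the nearest of these ends and 409 bp past the gene's first base. It was the only IDR summit inside the body of any lectin gene. The next gene, hsp-1, an Hsp70 chaperone, has its own peak 1197 bp from this summit, and its 5' end is 1594 bp away, outside the window.

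**Figure D1:**
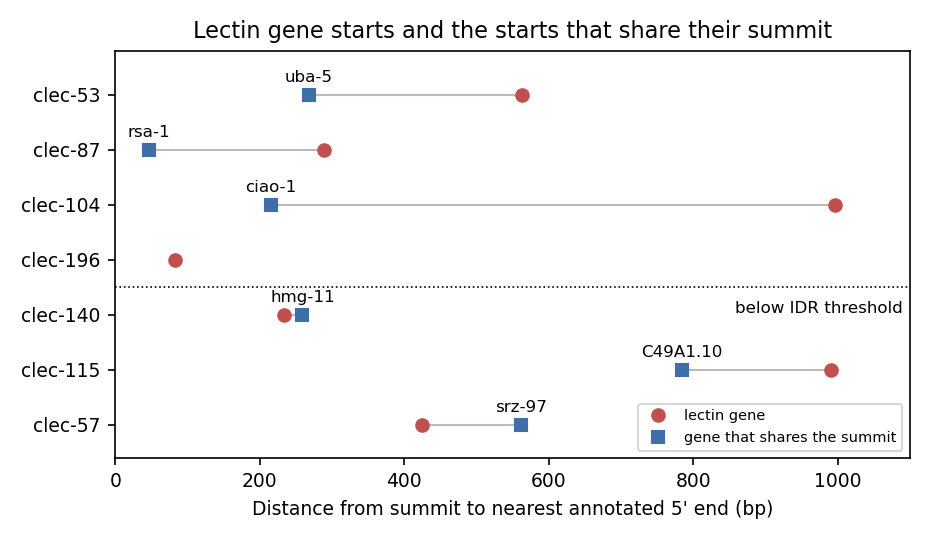
Distance in bp from the summit to the nearest annotated 5' end, for 7 lectin genes and for any gene start that shares the same summit. Shown are the 4 bound genes and, below the threshold, clec-140, clec-115 and clec-57. Of the next 10 lectin genes, those with no shared summit are not shown. At clec-53, clec-87 and clec-104 the partner start is the closer one (268, 46 and 215 bp against 563, 289 and 997 bp), and at clec-196 the lectin start is 83 bp away with no partner inside the window.

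The 4 bound genes are too few to place their rate of sharing with a neighbour. The nearest start was the lectin gene's at 1 of the 4 (interval 0.631 to 80.6%), while among other bound genes the gene's own start was nearest for 1500 of 2196 (68.3%). Among the 106 lectin genes with a head-to-head 5' neighbour 3 were bound (2.83%), against 17% of other genes so placed, and among the 134 with a same-strand neighbour 1 was bound (0.746%) against 6.16%. At the share of other genes within each orientation 26.3 lectin genes would have been bound, and at that of each chromosome 26.8.

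The lectin genes lie mostly on chromosomes V, IV and II, and their share bound was below that of other genes on each chromosome, though with few genes on some. On chromosome I, 3 of 36 lectin genes were bound (8.33%, against 17.7% of other genes). None of the 48 on chromosome II was bound (upper limit 7.40%, others 11.9%), nor any of the 86 on chromosome V (upper limit 4.20%, others 7.36%). On chromosome IV, 1 of 53 was bound (1.89%, others 10.5%). Chromosomes III and X hold only 14 and 3 lectin genes, none bound. In the middle 50% of each autosome's length 2 of 81 were bound (2.47%, others 13.7%), and towards the ends 2 of 156 (1.28%, others 10.9%).

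Lectin genes sit in arrays. Of the 240, 125 are next to another lectin gene, in 41 runs. None of the 125 was bound (upper limit 2.91%). The 4 bound genes are all among those not next to one (3.48%, interval 0.956 to 8.67%), and these intervals overlap. Both shares were below the 11.1% of other protein-coding genes. In the pooled list the shares were close, at 36.8% of lectin genes next to another and 39.1% of the rest. With its 15000 strongest regions they were 16% and 18.3%. These shares were not tested against each other. The longest run, of 13 genes from clec-40 to clec-33 on chromosome V (chrV:16839121-16869840), has a summit of the pooled list at 1 gene. Runs differed in this: that of 5 genes from clec-57 to clec-55 has one at 4, and the share of all lectin genes was 37.9%. Annotation also differed: 64.6% of lectin genes have an annotated 5' untranslated exon against 77.6% of other genes, and the share bound among genes that have one was 2.58% against 13.1%. Of the 240 members, 217 have 1 annotated 5' end. Per megabase of promoter window, 11.2 IDR summits fell in lectin windows and 48.5 in those of other genes.

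**Figure D2:**
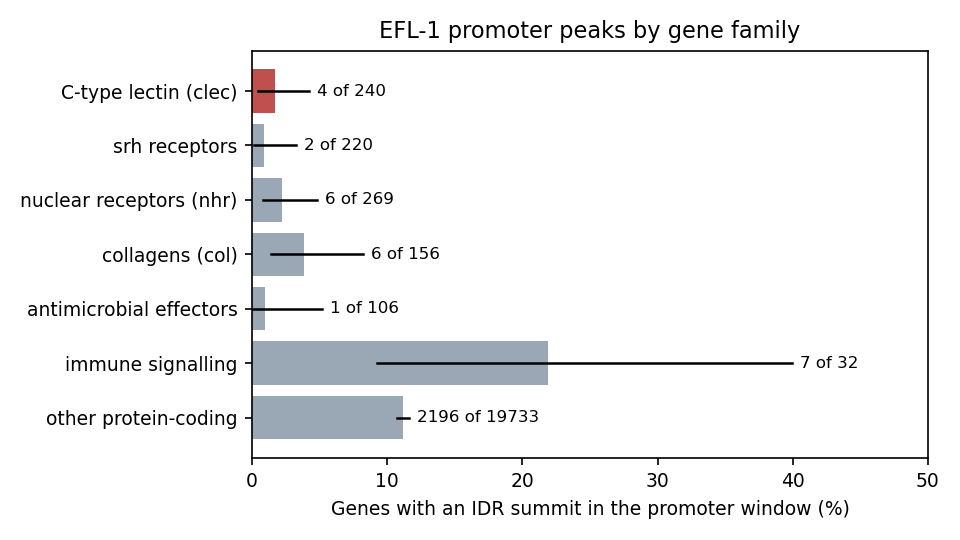
Share of genes with an IDR summit in the promoter window, in percent, for lectin genes, other gene families and immune lists, with 95% Clopper-Pearson intervals as bars. C-type lectin genes (1.67%) lie between the srh- family (0.909%) and the nhr- family (2.23%), below other protein-coding genes (11.1%).

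The lectin share was also below that of other genes in the whole pooled list, which counts the IDR peaks too, by a smaller ratio. The pooled list, which includes regions far below the IDR threshold, had a summit in the window of 91 lectin genes (37.9%, interval 31.8 to 44.4%), against 51.1% of other genes and 51.0% of all protein-coding genes. In the separate lists, 84 lectin genes had a summit in replicate 2 (35.0%, others 50.4%) and 90 in replicate 3 (37.5%, others 50.2%). In both lists at once there were 38 (15.8%, others 31.8%). Another 90 lectin genes had a region in no list (37.5%), a share that was not computed for other genes. The 10092 other genes with a pooled summit included the 2196 with an IDR summit. Of the 91 lectin genes, 87 had only regions below the IDR set. Their strongest had a median signal of 7.21, against 8.24 at other genes with only such regions. The median rank of the strongest region was 17406 at lectin genes and 9386 at others.

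**Figure D3:**
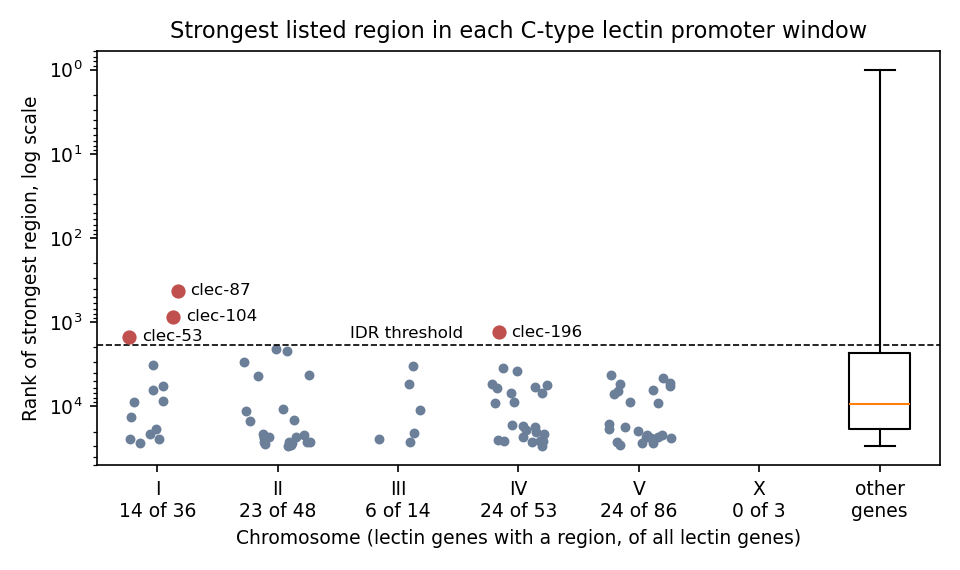
Rank of the strongest pooled region in each lectin promoter window by chromosome, on a log scale where a low rank is a strong region. The 4 IDR peaks, at ranks 422, 874, 1326 and 1490, rank above the other 87 by definition, because the IDR set is the 1886 strongest regions. The family median over all 91 is 17406.

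Just below the threshold, clec-140 led. It had a pooled signal of 21.5 (rank 2095), 11.9 in replicate 2 (rank 2648) and 11.1 in replicate 3 (rank 1522). The weakest IDR peak has a signal of 24.4, so clec-140 lay just outside it, while clec-53, at 33.4, was the weakest lectin peak inside. clec-140 (chrII:4673060-4676285) spans hmg-11, which reads the same way and lies wholly inside it. The summit was 234 bp from the clec-140 start and 259 bp from that of hmg-11. clec-146 followed, with 20.4 pooled (rank 2195), 12.3 in replicate 2 and 6.39 in replicate 3, its summit 253 bp upstream.

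The other 8 of the next 10 lectin genes were weaker, with pooled signals from 12.4 at clec-145 to 15.3 at clec-126. clec-126 has its summit in a tRNA gene 346 bp upstream, with 15.0 in replicate 2, where the summit lay 229 bp away, and 5.04 in replicate 3. clec-150 read 14.4 pooled, 6.99 in replicate 2 and 8.02 in replicate 3, with its summit 42 bp upstream. clec-78 had a counterpart in replicate 3 alone (8.03) and clec-10 in replicate 2 alone (7.38), so 8 of the 10 had one in both. Among protein-coding genes, the lectin start was the nearest at 9 of the 10. clec-115, whose nearest start is C49A1.10, was the exception. clec-126 is among the 9 because the tRNA gene at its summit was left out of this comparison.

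**Figure D4:**
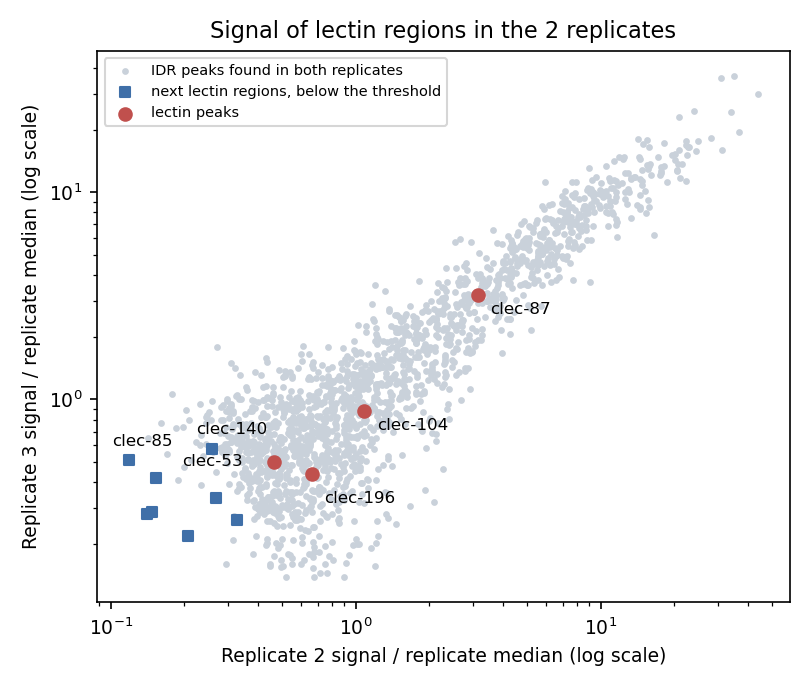
Signal in replicate 2 against replicate 3 for the named lectin regions, each divided by its replicate's median over the IDR peaks, on log axes. The bound genes lie from 0.465 to 3.16 in replicate 2 and from 0.439 to 3.19 in replicate 3, and the sub-threshold regions lie below them in replicate 2, at 0.327 or less, but overlap them in replicate 3, where clec-140 reached 0.580.

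The replicates ranked some of these regions differently. clec-85, one of the infection-linked lectin genes below, ranked 1822 in replicate 3 with a signal of 9.76 but 11629 in replicate 2 with 5.42, and its pooled signal was 13.5. Its summit lies in a coding exon, 337 bp upstream of the internal one of its 2 annotated 5' ends and 3559 bp past the gene's first base. clec-102 had a region in replicate 3 (9.88, rank 1781), 752 bp from its start and 57 bp from that of F33E2.4. Its window held 0 summits in replicate 2, and its strongest pooled region had a signal of 9.52 (rank 8828).

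The list of lectin genes linked to infection holds 13 members known to be induced by bacteria or to act against them. Of these 0 of 13 were bound (upper limit 24.7%, which includes the 11.0% of all protein-coding genes). The pooled list had a summit at 3 of the 13 (interval 5.04 to 53.8%, against 51.0% of all protein-coding genes): clec-85, clec-17 (signal 7.20, rank 18481) and clec-61 (5.94, rank 27615, with 6.56 in replicate 3). The other 10 had none, although in the separate lists clec-60 had regions in both replicates, clec-4 in replicate 3 and clec-86 in replicate 2.

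Immune genes of other kinds were read the same way. Of 106 genes in the antimicrobial effector families, 1 was bound (0.943%, against 11.0% of all protein-coding genes), fipr-17, with a pooled signal of 989 (rank 39), 728 in replicate 2 and 264 in replicate 3. Its summit was 289 bp from its own start and 331 bp from that of Y48A6B.3. Of 32 innate immune signalling genes, 7 were bound (21.9%), with an interval of 9.28 to 40.0% that includes the 11.0% of all genes. Each of the 7 was the nearest start to a summit in its window, although the stronger of the 2 nipi-3 summits (rank 1805) was nearest to rab-14 and the weaker (rank 1881) to nipi-3. The strongest were skn-1, a stress-response transcription factor (92.1, rank 720), tol-1, the Toll receptor (48.0), cebp-2, a C/EBP factor (40.1), and zip-2, a bZIP factor (30.6, with a counterpart in replicate 2 alone). Among large families, the srh- chemoreceptors had 2 of 220 bound (0.909%), the col- collagens 6 of 156 (3.85%) and the nhr- nuclear hormone receptors 6 of 269 (2.23%). The intervals of the lectin, srh-, nhr- and col- families overlap. The gene's own start was nearest to a summit for 2 of 6 bound col- genes, 5 of 6 nhr- genes and 2 of 2 srh- genes. For the bound lectin genes it was 1 of 4, and these counts are small and were not tested.

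Of 299 other genes next to any lectin gene in gene order, 17 were bound (5.69%, interval 3.35 to 8.95%, against 11.0% of all protein-coding genes), and for 13 of the 17 their own start was nearest to a summit. The 17 include uba-5, rsa-1, ciao-1 and hsp-1, next to the 4 bound lectin genes. The strongest of these peaks is that of efl-1 itself, next to clec-239, with a signal of 1389 (rank 11). Its summit lies 171 bp upstream of efl-1 and 9317 bp from the start of clec-239, which had no pooled summit. dnsn-1, beside clec-10, had a peak of rank 148, 8377 bp from the lectin start, and skn-1, within whose span clec-178 lies, one of rank 720, 2229 bp from the clec-178 start. Among lectin genes with no IDR summit in their window, the closest was 2074 bp from a start, at clec-113, in the promoter of hmg-6 (rank 1667). Within 5000 bp of a 5' end 17 lectin genes had an IDR summit (7.08%, against 23.2% of all protein-coding genes), and within 10000 bp 41 did (17.1%, against 34.5%). The median distance to the nearest IDR summit was 33635 bp for lectin genes and 19393 bp for other genes.

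Sequence words near the summits were counted within 100 bp on both strands. TTTGAA was present at 3 of the 4 bound lectin peaks (all but clec-104), with 49.8% of all IDR peaks as the comparison, and the E2F word at none of them, against 12.4%. At the strongest pooled summits of lectin genes, 87 distinct regions, the E2F word occurred at 3 (3.45%, at clec-176, clec-205 and clec-227) and TTTGAA at 44 (50.6%), close to the 3.79% and 47.6% of all pooled summits. Across whole promoter windows the E2F word was found in 21.3% of lectin windows and 22.3% of those of all genes, so the letters were about as frequent in lectin promoters as in others. A match is a description of the letters, not a binding site.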

How the data were processed

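The measurements are EFL-1 ChIP-seq peak lists from L1 larvae, 1 group of 2 biological replicates. The authors deposited narrowPeak lists for each replicate, for both replicates pooled, and an IDR set, on ce10 and ce11. The ce10 lists were not used. Column 7 holds the signal value the authors deposited for each region, used here to rank and describe peaks. Column 9 holds the deposited −log10 q-value. Column 10 gives the summit. For the aligner and the peak caller, names and versions were not given in the sources used here, and depth is unknown.

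Genes came from Ensembl release 115 for WBcel235, and sequences and products from RefSeq of the same assembly. Windows ran from 1000 bp upstream to 500 bp downstream of each 5' end. Nearest starts were taken among protein-coding genes. For the 4 bound lectin genes the nearest-start count was 1 among all annotated genes too. Python 3.11.15, pandas 2.3.3, numpy 2.4.6 and scipy 1.17.1 were used, with figures by matplotlib 3.10.9. Counting code was checked on 200 simulated summits, and all 200 were recovered. Shares carry 95% Clopper-Pearson intervals, which cover counting of genes only. No test was run, because the family was chosen from these data.

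The members and lists were chosen with earlier results of these data known. Genes named are the bound lectin genes, the 10 next strongest, genes sharing their summits, up to 4 of the infection list and the 4 strongest bound genes of each immune list. Any other gene in the text was named after its values were seen. No column of per-sample values was left unmapped (0 columns). Alternatives were another window, another 5' end rule, the stronger 50% of each list, nearest-start assignment and each replicate alone.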

Additional observations from a re-analysis of the deposited data

How the results depend on the processing

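The lectin share with an IDR summit stayed below that of other genes under every alternative run. Giving each summit only to the nearest start left 0.417% of lectin genes and 7.60% of others. The 943 strongest IDR peaks left 0.833% of lectin genes (2, clec-87 and clec-104) and 6.55% of others. A narrow window (from 300 bp before the start to 100 bp after it) left 0.833% (clec-87 and clec-196) and 7.25%. With the 1886 strongest regions of a single replicate, other genes had 10.5 to 10.9%, and lectin genes 1.67 to 2.50%, the higher value in replicate 3, where clec-53, clec-87, clec-104, clec-102, clec-140 and clec-85 were in, and clec-196 was not. For the pooled list, the narrow window gave 13.75% of lectin genes and 24.7% of others, the 15000 strongest regions 17.1% and 33.6%, and single replicates 50.2 to 50.4% of others. The count of bound lectin genes with the nearest start was 0 among the 943 strongest IDR peaks and 1 (of 4) to 2 (of 6) with single replicates. Of 26 recomputed values, 13 stayed inside the interval of the reported share or, for the nearest-start count, within 1.5 times it. No paired analysis was possible because the study has 1 group. The 4 bound genes limit precision, and unknown depth limits what an unlisted region shows.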

Other observations

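The word TGATAA, the core of the sites known for intestinal GATA factors, was within 100 bp of none of the 4 bound lectin summits, against 10.5% of all IDR summits. It was near 21 of the 87 strongest pooled lectin summits (24.1%), against 18.7% of all pooled summits, and in 82.9% of lectin promoter windows against 81.6% of all. These are counts with no test.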
